A study of Mus musculus with 12 samples.

Results

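The genes described here are 8 genes of the coagulation and plasminogen system, F3, Tfpi, Thbd, Procr, Plat, Plau, Plaur and Serpine2. They were chosen by symbol, with earlier results of these data known, and matched to the mouse Ensembl gene identifiers. The shares of all tested genes set beside them below are therefore a description and no test of the set. The 8 genes are among the 37991 identifiers in the count files and the 15327 genes that passed the filter on low counts. All 8 were detected in all 12 samples, with 335 to 13373 counts per gene and sample, so the filter removed none of them. The RNA-seq data came from primary mouse embryonic fibroblasts (MEFs) of the FVB strain, isolated from embryos at day 13.5 and used at passage 3. The cells were wild-type, or homozygous for 3KR, a knock-in allele of the transcription factor gene E2f1 in which lysines that are acetylated after DNA damage are replaced. The knock-in strain was made with a zinc finger nuclease and goes back to 1 founder. Cells of each genotype were left untreated or received neocarzinostatin (NCS), a drug that breaks both strands of DNA, at 250 ng/ml for 3 h, which gives 4 groups of 3 samples. The study describes its graphs as means of independent experiments with cells or mice. The labels do not say whether the samples of a group came from separate embryos, and the p-values measure the spread between these samples.

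Blood clotting starts when tissue factor, the product of F3, binds factor VII at the cell surface, and tissue factor pathway inhibitor (Tfpi) shuts this complex down. Thrombomodulin (Thbd) captures thrombin and turns it toward activation of protein C, a reaction that the endothelial protein C receptor (Procr) helps. Clots and matrix are broken down by plasmin, which is cut from plasminogen by tissue-type (Plat) or urokinase-type (Plau) plasminogen activator. The receptor Plaur holds urokinase at the cell surface, and Serpine2, also called protease nexin-1, inhibits urokinase, tissue-type activator and thrombin. Fibroblasts are a known source of tissue factor and of the plasminogen activators, whereas most circulating clotting factors are made in the liver.

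The libraries held 33203757 to 45279321 counts. Wild-type replicate 3 stood apart from its fellow replicates in both treatments. Pairs of libraries that included it differed by a chi-square of 7.59 to 9.40 per gene, and all other pairs of 1 group by 2.33 or less. E2f1 itself had 1042 to 1296 normalized counts in wild-type and 1111 to 1259 in 3KR cells, and its level does not tell the alleles apart. Xist had between 32.3 and 62.5 normalized counts in wild-type against 30590 to 35630 in 3KR samples, and the Y-linked gene Ddx3y was at 5370 to 5822 against at most 16.2. Sex and genotype thus cannot be told apart in any comparison of 3KR with wild-type. The fibroblast markers were high throughout, with 8 of 8 genes tested, but were not level between the genotypes. Their sum was 42653 to 45895 CPM (counts per library size) in wild-type and 49902 to 52084 CPM in 3KR samples, without overlap, and 7 of the 8 were higher and 1 was lower in untreated 3KR MEFs. Markers of other cells were low, and several of these lists also moved with the genotype. The sum for the 9 macrophage markers was 99.9 to 125.9 CPM in wild-type and 176.8 to 197.9 CPM in 3KR samples, and that for the 7 Schwann and neural crest markers was 200.8 to 211.4 CPM in wild-type and 36.4 to 43.3 CPM in 3KR samples. The other lists, mesothelial, platelet and megakaryocyte, and keratinocyte and epithelial, summed to at most 18.9, 23.9 and 2.45 CPM in any sample. Of the 6 platelet and megakaryocyte markers 5 were tested, with 3 higher and 2 lower in untreated 3KR MEFs. The remaining marker, Gp9, had at most 1 count. The sum of these 6 overlapped between untreated genotypes, at 18.9 to 20.9 CPM in wild-type and 18.4 to 20.4 CPM in 3KR samples. After NCS it did not overlap, at 19.4 to 21.3 CPM in wild-type and 21.5 to 23.9 CPM in 3KR samples. The mesothelial sum overlapped between the genotypes after NCS but not without treatment. The part of these cells in the results below was not tested, and fewer cells of a type cannot be told apart from less RNA per cell.

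The start sites of 5 of the 8 genes have a window of 300 bases, 250 before and 50 after the start, in the RefSeq table for GRCm38.p6. Thbd, Plat and Plau had no window. The windows of F3, Procr and Plaur hold the letters TGANTCA, a loose pattern for the site bound by the AP-1 factors. N stands for any base, and the share of all genes given below uses the same pattern. The stretches are shown for these letters and because these 3 genes moved in the comparisons that follow. The AP-1 letters are in capitals, each stretch is written 5′ to 3′ on the strand of its gene, and all 3 genes lie on the plus strand.
F3, chr3:121723361-121723438, bases -176 to -99 from the start: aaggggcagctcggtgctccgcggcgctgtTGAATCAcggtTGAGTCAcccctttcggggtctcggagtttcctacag
Procr, chr2:155751033-155751099, bases -184 to -118 from the start: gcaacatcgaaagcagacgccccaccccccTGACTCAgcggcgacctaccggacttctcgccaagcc
Plaur, chr7:24462384-24462450, bases -99 to -33 from the start: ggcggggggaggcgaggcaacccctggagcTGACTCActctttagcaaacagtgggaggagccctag

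In F3 a pair of AP-1 letter groups, TGAATCA at -146 and TGAGTCA at -135, stood 4 bases apart. Procr held TGACTCA at -154 and Plaur held the same letters at -69. The pattern TGANTCA, which reads alike on both strands, was present for 3 of the 5 genes with a window, and for 8.97% of the 27025 genes in the table. The E2F letters TTNGCGC were found for 1 of the 5, Serpine2, at -235, and for 7.24% of all genes. The GC box GGGCGG was found for 4 of the 5 against 38.2% of all genes, and a full p53 site for 0 of the 5 against 0.074%. Both strands were searched in each case, and no match of one motif overlapped a match of another in these windows. F3 and Plaur, which share the AP-1 letters, differed in direction between the genotypes, as given next. A match of letters is a description of these windows and no evidence of binding.

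The first question was how the genotypes differed in cells that had received no drug. In untreated 3KR MEFs, F3 was higher than in wild-type MEFs, while Tfpi, Thbd, Procr, Plau and Plaur were lower. Plat and Serpine2 did not pass the test. The counts were 1 of 8 genes higher, against 22.1% of all tested genes, and 5 of 8 lower, against 23.6%, at an edgeR false discovery rate (FDR) of 0.05. The groups did not overlap for 7 of the 8, against 53.3% of all tested genes. The median log2 fold change was -0.60 over the 8 genes and -0.00036 over all tested genes. Without wild-type replicate 3 in either treatment, 7 of the 8 passed, and the log2 fold changes of Thbd, Procr, Plau and Plaur were -0.65, -0.59, -0.75 and -0.91. Levels below are counts scaled to exon length in kilobases and to library size (RPKM), fold changes are those of the edgeR fit on counts, and SE is the standard error of a log2 fold change.

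**Figure D1:**
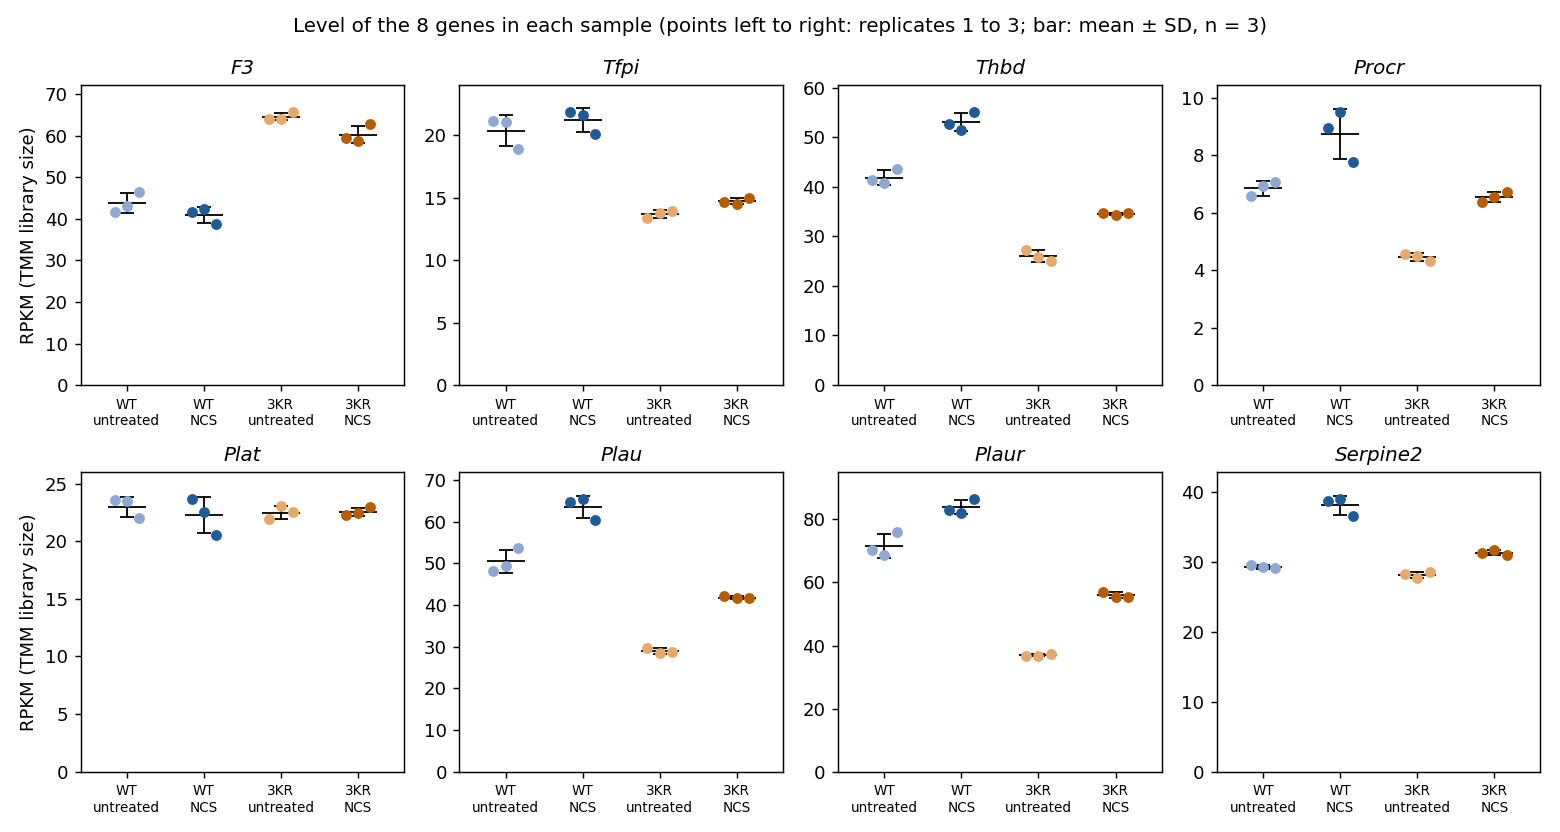
Level in RPKM (vertical axes, each from 0) of the 8 genes in the 12 samples. Points are replicates 1 to 3 from left to right in each group, and bars are the mean ± SD (n = 3). F3 sits higher in all 3KR samples, Tfpi lower, and Thbd, Procr, Plau and Plaur climb in the same order of groups, from untreated 3KR to NCS-treated wild-type. Plat stays between 20.6 and 23.7 RPKM.

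F3, which encodes tissue factor, was measured at 41.7, 43.1 and 46.5 RPKM in untreated wild-type MEFs, replicates 1 to 3 in this order here and below. In untreated 3KR MEFs it was at 64.1, 64.2 and 65.7 RPKM. After NCS it was at 41.6, 42.3 and 38.7 RPKM in wild-type and at 59.6, 58.7 and 62.8 RPKM in 3KR MEFs. Every 3KR sample lay above every wild-type sample. The means were 43.8 ± 2.43, 40.9 ± 1.91, 64.7 ± 0.904 and 60.3 ± 2.14 RPKM (SD, n = 3) for untreated wild-type, NCS-treated wild-type, untreated 3KR and NCS-treated 3KR MEFs, an order kept for all genes below. The highest group was untreated 3KR and the next NCS-treated 3KR, whereas the wild-type groups overlapped. F3 was 1.48-fold higher in 3KR MEFs both without treatment (log2 fold change 0.56, SE 0.041, edgeR FDR = 4.64e-11) and after NCS (0.56, edgeR FDR = 6.53e-11).

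Tfpi, the inhibitor of the tissue factor complex, was at 21.1, 21.1 and 18.9 RPKM in untreated and 21.9, 21.7 and 20.1 RPKM in NCS-treated wild-type cells. Without treatment in 3KR MEFs it was at 13.4, 13.8 and 14.0 RPKM, and at 14.7, 14.5 and 15.0 RPKM with NCS. Every 3KR sample lay below every wild-type sample, the reverse of F3, and wild-type replicate 3 was the lowest of its group in both treatments. The group means were 20.4 ± 1.26, 21.2 ± 0.959, 13.7 ± 0.292 and 14.7 ± 0.223 RPKM (SD, n = 3), and the wild-type groups again overlapped. Tfpi was 1.49-fold lower in untreated 3KR MEFs (log2 fold change -0.57, SE 0.042, edgeR FDR = 6.58e-11) and 1.44-fold lower after NCS (-0.53, edgeR FDR = 3.66e-10). Without wild-type replicate 3 the untreated values for F3 and Tfpi were 0.62 and -0.62.

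With initiator and inhibitor moving in opposite directions, the F3 to Tfpi ratio of RPKM separated the genotypes further. This ratio, like the others given below, was chosen after the values had been seen and has no test. It was 1.97, 2.05 and 2.45 in untreated and 1.90, 1.95 and 1.92 in NCS-treated wild-type MEFs, and 4.79, 4.66 and 4.71 in untreated and 4.05, 4.04 and 4.19 in NCS-treated 3KR MEFs. The lowest 3KR sample thus stood well above the highest wild-type sample, which was replicate 3 of the untreated group. The size of such a ratio depends on the length assigned to each gene. With the length of the principal transcript in place of all exons, it was 0.988 to 1.23 in untreated wild-type and 2.33 to 2.40 in untreated 3KR MEFs.

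**Figure D2:**
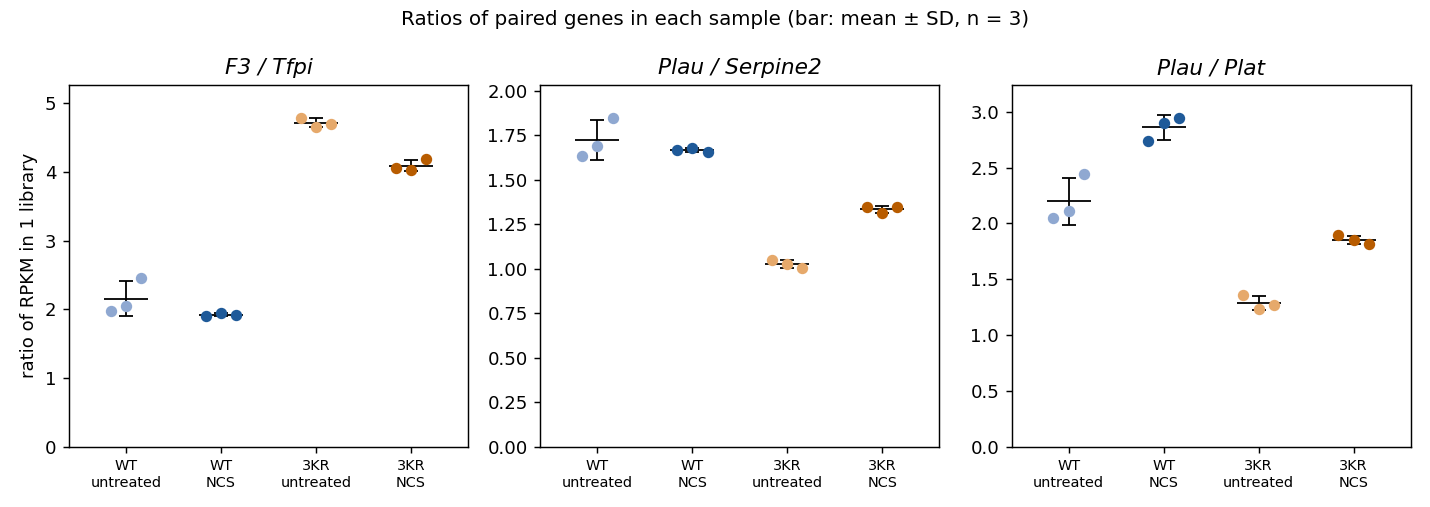
Ratios of RPKM (vertical axes) between pairs of the genes in each sample, by group. Points are replicates 1 to 3 and bars the mean ± SD (n = 3). F3 to Tfpi lies between 1.90 and 2.45 in wild-type and between 4.04 and 4.79 in 3KR samples, while Plau to Serpine2 and Plau to Plat are lowest in untreated 3KR MEFs.

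The genes of the protein C pathway were both lower in 3KR MEFs. Thbd was at 41.3, 40.7 and 43.6 RPKM in untreated wild-type and at 27.3, 25.8 and 25.1 RPKM in untreated 3KR MEFs. After NCS the values were 52.7, 51.4 and 55.1 RPKM and 34.6, 34.2 and 34.7 RPKM. None of the 4 groups overlapped another, and NCS-treated 3KR MEFs remained below untreated wild-type MEFs. Group means of Thbd were 41.9 ± 1.49, 53.1 ± 1.84, 26.0 ± 1.13 and 34.5 ± 0.279 RPKM (SD, n = 3). Thbd was 1.61-fold lower in untreated 3KR MEFs (log2 fold change -0.69, SE 0.037, edgeR FDR = 2.63e-13) and 1.54-fold lower after NCS (-0.62, edgeR FDR = 1.59e-12).

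Procr, the least abundant of the 8 genes by length, was at 6.57, 6.92 and 7.06 RPKM in untreated wild-type and at 4.57, 4.48 and 4.32 RPKM in untreated 3KR MEFs. With NCS it was at 8.93, 9.50 and 7.78 RPKM in wild-type and at 6.37, 6.55 and 6.72 RPKM in 3KR MEFs. NCS-treated 3KR samples overlapped the untreated wild-type samples, and no other neighbours in the order overlapped. Group means were 6.85 ± 0.253, 8.74 ± 0.876, 4.46 ± 0.126 and 6.55 ± 0.173 RPKM (SD, n = 3). Procr was 1.53-fold lower in untreated 3KR MEFs (log2 fold change -0.62, SE 0.075, edgeR FDR = 3.27e-07) and 1.33-fold lower after NCS (-0.42, SE 0.071, edgeR FDR = 3.51e-05).

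Thbd and Procr are known as genes of the endothelium, and the endothelial markers were therefore read beside them. Of 9 listed, 6 were abundant enough to test, 1 of them (Erg) higher and 2 lower in 3KR MEFs. Tie1, Cldn5 and Pecam1 had at most 1, 2 and 9 counts in any sample. The summed level of the list was 14.7 to 15.2 CPM in untreated wild-type, 14.2 to 15.9 in wild-type given NCS, 28.5 to 31.3 in untreated 3KR and 18.5 to 19.7 in 3KR MEFs given NCS. The higher sum in 3KR MEFs rested on Erg, at 145 to 211 counts in untreated wild-type and 848 to 1057 in untreated 3KR samples. Esam (167 to 222 against 27 to 36 counts) and Emcn (40 to 65 against 6 to 14) were lower, like Thbd and Procr. The untreated genotypes overlapped for Kdr (107 to 164 against 116 to 151), Cdh5 (15 to 19 against 16 to 23) and Tek (19 to 38 against 16 to 50). Without Erg, a choice made after the values had been seen, the sum of the other 8 markers was 10.5 to 10.8 CPM in untreated wild-type and 5.74 to 6.21 CPM in untreated 3KR MEFs. The part of endothelial cells in the levels of Thbd and Procr was not tested. Tfpi, Thbd and Procr share chromosome 2 with E2f1. Distances to E2f1 in GRCm38, between the gene ends of lower coordinate, were 1.19 Mb (Procr), 6.15 Mb (Thbd) and 70.1 Mb (Tfpi). Of the 132 tested genes within 5 Mb of E2f1, 63 passed the test between untreated genotypes in either direction, which is 47.7% against 45.7% of all tested genes.

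Among the plasminogen activators, Plau differed between the genotypes and Plat did not pass the test. Plau, which encodes urokinase, was at 48.3, 49.4 and 53.7 RPKM in untreated wild-type and at 29.8, 28.4 and 28.7 RPKM in untreated 3KR MEFs. With NCS it was at 64.7, 65.5 and 60.5 RPKM and at 42.1, 41.6 and 41.7 RPKM. No group overlapped another. The group means of Plau were 50.5 ± 2.86, 63.6 ± 2.66, 28.9 ± 0.722 and 41.8 ± 0.264 RPKM (SD, n = 3). Plau was 1.74-fold lower in untreated 3KR MEFs (log2 fold change -0.80, SE 0.041, edgeR FDR = 6.35e-14) and 1.52-fold lower after NCS (-0.60, SE 0.040, edgeR FDR = 9.49e-12).

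Plat, which encodes tissue-type plasminogen activator, was nearly level. It was at 23.6, 23.4 and 22.0 RPKM in untreated and 23.7, 22.6 and 20.6 RPKM in NCS-treated wild-type MEFs, and at 21.9, 23.0 and 22.5 RPKM in untreated and 22.3, 22.4 and 22.9 RPKM in NCS-treated 3KR MEFs. All 4 groups overlapped, and wild-type replicate 3 was again the lowest of its group. Group means were 23.0 ± 0.865, 22.3 ± 1.58, 22.5 ± 0.563 and 22.5 ± 0.351 RPKM (SD, n = 3). The log2 difference between genotypes was -0.033 without treatment (95% interval -0.12 to 0.053, edgeR FDR = 0.553) and 0.018 after NCS (-0.069 to 0.11, edgeR FDR = 0.754). These intervals leave room for a small difference in either direction. The Plau to Plat ratio of RPKM was 2.05 to 2.44 in untreated and 2.73 to 2.94 in NCS-treated wild-type MEFs, and 1.23 to 1.36 and 1.82 to 1.89 in the 3KR groups.

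Plaur, the urokinase receptor, differed most between the untreated genotypes among the 8 genes. It was at 70.4, 68.7 and 75.9 RPKM in untreated wild-type and at 36.7, 36.7 and 37.2 RPKM in untreated 3KR MEFs. After NCS it was at 83.1, 82.1 and 86.5 RPKM and at 57.0, 55.4 and 55.4 RPKM. The 4 groups were fully separate. Group means of Plaur were 71.7 ± 3.79, 83.9 ± 2.29, 36.9 ± 0.303 and 56.0 ± 0.901 RPKM (SD, n = 3). Plaur was 1.94-fold lower in untreated 3KR MEFs (log2 fold change -0.96, SE 0.037, edgeR FDR = 2.99e-16) and 1.50-fold lower after NCS (-0.58, SE 0.036, edgeR FDR = 2.98e-12). Urokinase and its receptor were thus both lower. Macrophages are known to carry the receptor. Their markers were higher in 3KR MEFs, 9 of 9 without treatment and 7 of 9 after NCS, and F3 was higher as well. The part of macrophages in the levels of Plaur and F3 was not tested.

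Serpine2, the protease inhibitor, was at 29.6, 29.2 and 29.1 RPKM in untreated wild-type and at 28.3, 27.6 and 28.5 RPKM in untreated 3KR MEFs. With NCS it was at 38.8, 39.0 and 36.6 RPKM in wild-type and at 31.3, 31.7 and 31.0 RPKM in 3KR MEFs. The untreated genotypes did not overlap, yet were close. Group means were 29.3 ± 0.280, 38.1 ± 1.35, 28.2 ± 0.460 and 31.3 ± 0.323 RPKM (SD, n = 3). The untreated log2 difference of -0.057 did not pass the test (95% interval -0.12 to 0.0073, edgeR FDR = 0.142), but without wild-type replicate 3 in either treatment the same difference did (-0.057, edgeR FDR = 0.0222). After NCS, Serpine2 was 1.22-fold lower in 3KR MEFs (log2 fold change -0.28, SE 0.031, edgeR FDR = 7.12e-08). The Plau to Serpine2 ratio of RPKM was 1.63 to 1.85 in untreated and 1.66 to 1.68 in NCS-treated wild-type MEFs. It was 1.01 to 1.05 in untreated and 1.31 to 1.34 in NCS-treated 3KR MEFs, again depending on length for its size. With the length of the principal transcript, the ratio was 0.440 to 0.498 in untreated wild-type and 0.271 to 0.283 in untreated 3KR MEFs.

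Between NCS-treated cells, 1 of the 8 genes (F3) was higher in 3KR MEFs, against 22.9% of all tested genes, and 6 of 8 were lower, against 23.6% (46.5% in either direction). Plat alone did not pass. The groups did not overlap for 7 of 8, against 54.4% of all tested genes, and the median log2 fold change was -0.47 against 0.0037 over all. Without wild-type replicate 3, 7 of the 8 passed as well, with Thbd at -0.58, Procr at -0.49, Plau at -0.63, Plaur at -0.55 and Serpine2 at -0.30. The comparisons of genotype and of treatment share groups, and their values stand side by side here without a test of their likeness. By the length of all exons, Plaur had the highest level of the 8 genes in untreated wild-type MEFs and Procr the lowest. The places between them depend on the length used. By the principal transcript, Serpine2 was at 109.8 RPKM and second to Plaur at 124.6 RPKM, followed by F3 at 59.1, Plat at 56.9, Tfpi at 54.9, Plau at 51.0, Thbd at 41.9 and Procr at 8.71 RPKM.

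**Figure D3:**
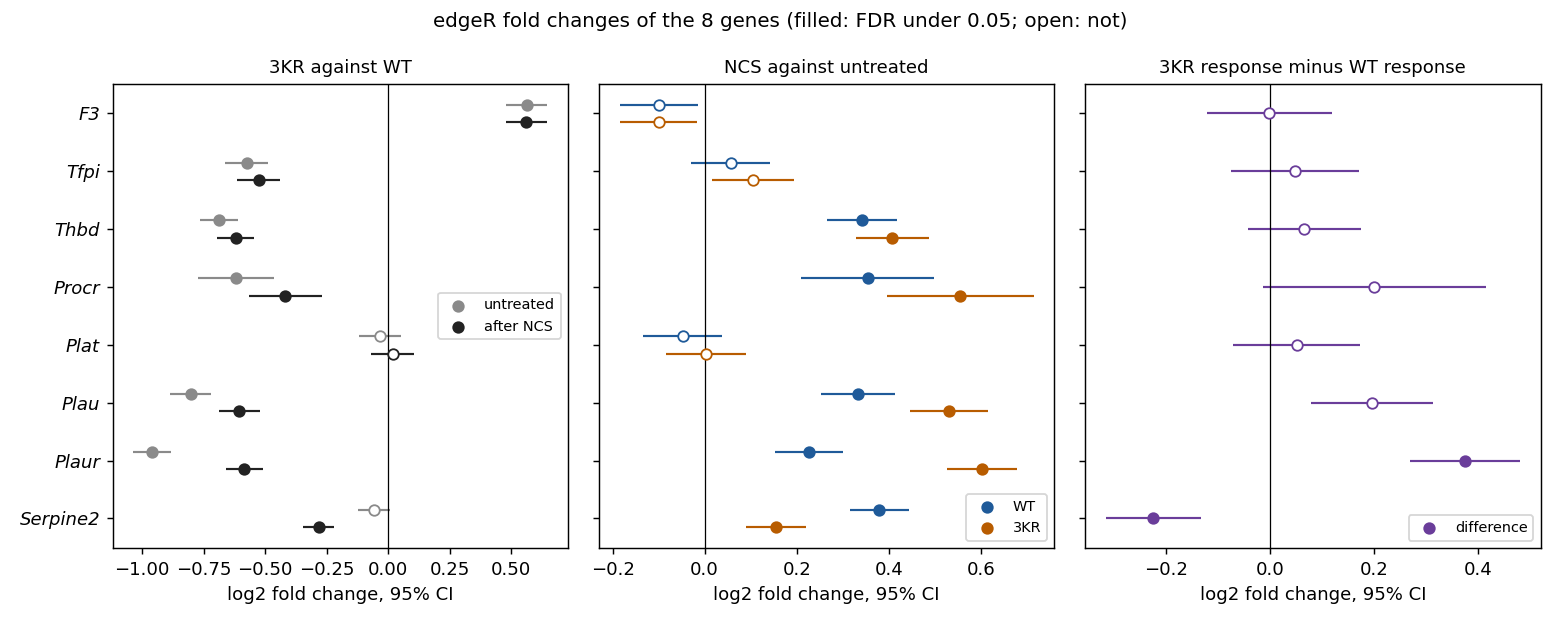
Log2 fold changes of the 8 genes (horizontal axes) with 95% intervals, for 3KR against wild-type, NCS against untreated, and the genotype difference in response. Filled points passed the edgeR FDR of 0.05. Plaur has the largest drop in untreated 3KR MEFs (-0.96) and responds more to NCS in 3KR MEFs (difference 0.38), while Serpine2 responds less (-0.22).

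The next comparison asked what NCS did within each genotype. In wild-type MEFs, 5 of the 8 genes rose, Thbd, Procr, Plau, Plaur and Serpine2, against 14.3% of all tested genes, and 0 fell, against 12.4% (26.7% in either direction). The groups did not overlap for 5 of 8, against 34.9% of all tested genes. In 3KR MEFs 5 rose as well, against 15.8%, and 0 fell, against 15.0% (30.8% in either direction), with 7 of 8 not overlapping, against 47.6%. They were the same 5 genes. The median log2 fold change of the 8 was 0.28 in wild-type (0.0054 over all tested genes) and 0.28 in 3KR MEFs (-0.00078 over all).

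In wild-type MEFs the largest rise was that of Serpine2, 1.30-fold (log2 fold change 0.38, SE 0.031, edgeR FDR = 2.20e-09). Procr rose 1.28-fold (0.35, SE 0.070, edgeR FDR = 4.47e-04), Thbd 1.27-fold (0.34, SE 0.036, edgeR FDR = 1.69e-07) and Plau 1.26-fold (0.33, SE 0.039, edgeR FDR = 6.84e-07). Plaur rose 1.17-fold (0.23, SE 0.036, edgeR FDR = 3.52e-05). Without wild-type replicate 3 the rises of Procr and Plau were 0.45 and 0.41 on the log2 scale. In 3KR MEFs the order was another, with Plaur first at 1.52-fold (0.60, SE 0.037, edgeR FDR = 1.27e-11). Procr rose 1.47-fold (0.56, SE 0.077, edgeR FDR = 5.15e-06), Plau 1.44-fold (0.53, SE 0.041, edgeR FDR = 6.58e-10) and Thbd 1.33-fold (0.41, SE 0.038, edgeR FDR = 1.25e-08). Serpine2 came last with 1.11-fold (0.15, SE 0.031, edgeR FDR = 5.15e-04).

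The initiator, its inhibitor and the tissue-type activator did not pass the test for NCS in either genotype. The log2 change of F3 was -0.099 in wild-type (edgeR FDR = 0.0817) and -0.10 in 3KR MEFs (edgeR FDR = 0.0642), and that of Tfpi was 0.056 (edgeR FDR = 0.353) and 0.10 (edgeR FDR = 0.0695). F3 in wild-type MEFs did pass with at least 10 counts in every sample (-0.11, edgeR FDR = 0.0351), with the replicate block (-0.098, edgeR FDR = 0.0231) and without untreated replicate 1 (-0.13, edgeR FDR = 0.0347). In 3KR MEFs both genes are near the threshold. When wild-type replicate 3 was left out, F3 in 3KR MEFs passed (-0.10, edgeR FDR = 3.06e-04), as did Tfpi (0.10, edgeR FDR = 0.00243), whereas F3 in wild-type MEFs moved to -0.020 (edgeR FDR = 0.698). Plat changed by -0.048 in wild-type (95% interval -0.13 to 0.038, edgeR FDR = 0.446) and by 0.0036 in 3KR MEFs (-0.083 to 0.090, edgeR FDR = 0.962).

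Whether the genotypes responded to NCS to a different extent was tested as a difference of the log2 changes, 3KR minus wild-type. Of the 8 genes, 1 had a larger and 1 a smaller value in 3KR MEFs, against 1.86% and 1.87% of all tested genes (3.73% in either direction). Plaur rose more in 3KR MEFs, with a difference of 0.38 on the log2 scale (SE 0.051, edgeR FDR = 8.02e-05). Serpine2 rose less, at -0.22 (SE 0.044, edgeR FDR = 0.00369). The NCS responses of the receptor and of the inhibitor of urokinase thus differed between genotypes in opposite directions. The levels of both genes after NCS were lower in 3KR MEFs. The difference was 0.20 for Plau (SE 0.057, edgeR FDR = 0.0537), just above the threshold of 0.05, and without wild-type replicate 3 it was 0.12 with an edgeR FDR of 0.0466. For Procr it was 0.20 (SE 0.10, edgeR FDR = 0.347), and 0.10 without that replicate (edgeR FDR = 0.628). F3, Tfpi, Thbd and Plat had differences of -0.00088, 0.048, 0.067 and 0.052, and edgeR FDRs of 0.996, 0.757, 0.581 and 0.733.

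Over the 12 samples, Thbd, Plau and Plaur followed each other closely, with Pearson correlations of log2 CPM of 0.989 for Thbd and Plau, 0.988 for Plau and Plaur and 0.983 for Thbd and Plaur. Procr followed Plau (0.977), Thbd (0.947) and Plaur (0.947). F3 ran opposite to Tfpi (-0.972), and also to Thbd (-0.922), Plaur (-0.910), Plau (-0.892), Procr (-0.795) and Serpine2 (-0.613). Plat stood alone, with correlations of -0.14 to 0.17 with the other 7. Since the samples fall into the 4 groups, these values mostly describe the group means, and the samples share genotype, treatment and sex. The tested gene most like each of the 8 was Hoxd8 for F3 (0.991), Rcn2 for Tfpi (0.993), Cxxc5 for Thbd (0.997), Vdac1 for Procr (0.989), Pdlim5 for Plau (0.996), Fam198b for Plaur (0.996) and Sqstm1 for Serpine2 (0.986). Plat had no gene as close, with Polr2h at 0.936. The other 2 nearest genes were Trem2 and Phf11d for F3, Stmn2 and Zdhhc20 for Tfpi, Pdgfa and Enah for Thbd, and Acot7 and Gsn for Procr. They were Mnat1 and Polr2e for Plat, Ptgs2 and Cxxc5 for Plau, Ptgs2 and Gdpd5 for Plaur, and Msmo1 and Fuca1 for Serpine2. Ptgs2, the inducible cyclooxygenase, was thus near both urokinase and its receptor.

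The rest of the system was read from 3 lists of 43 genes in all, also chosen with earlier results of these data known. Of these, 23 passed the filter on low counts. Most of those that did not are known as liver genes, and no sample had more than 13 counts for any of the 18 that could be matched by symbol. F12, F13b, Fga, Fgg, Serpina5 and Hrg had 0 counts in all 12 samples, which allows up to 3 counts each, and this bounds counting error only. The substrates of the system were near 0 as well, with at most 2 counts for plasminogen (Plg), 4 for prothrombin (F2) and 1 for protein C (Proc), and factor VII (F7), the partner of tissue factor, had 2 to 13. Between untreated genotypes, 3 of the 23 had a higher and 9 a lower level in 3KR MEFs, against 22.1% and 23.6% of all tested genes, and the median log2 fold change of the 23 was -0.12. The medians over all tested genes, given above, are within 0.01 of 0 in each comparison. With NCS these counts were 4 and 9, against 22.9% and 23.6%, and the median was -0.10. NCS raised 3 and lowered 1 in wild-type MEFs (median 0.047), against 14.3% and 12.4%, and raised 7 and lowered 0 in 3KR MEFs (median 0.080), against 15.8% and 15.0%. Without wild-type replicate 3 in either treatment, 24 genes of the lists were tested, with 4 higher and 12 lower in untreated 3KR MEFs and 4 higher and 10 lower after NCS. NCS then raised 6 and lowered 1 in wild-type and raised 8 and lowered 2 in 3KR MEFs.

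**Figure D4:**
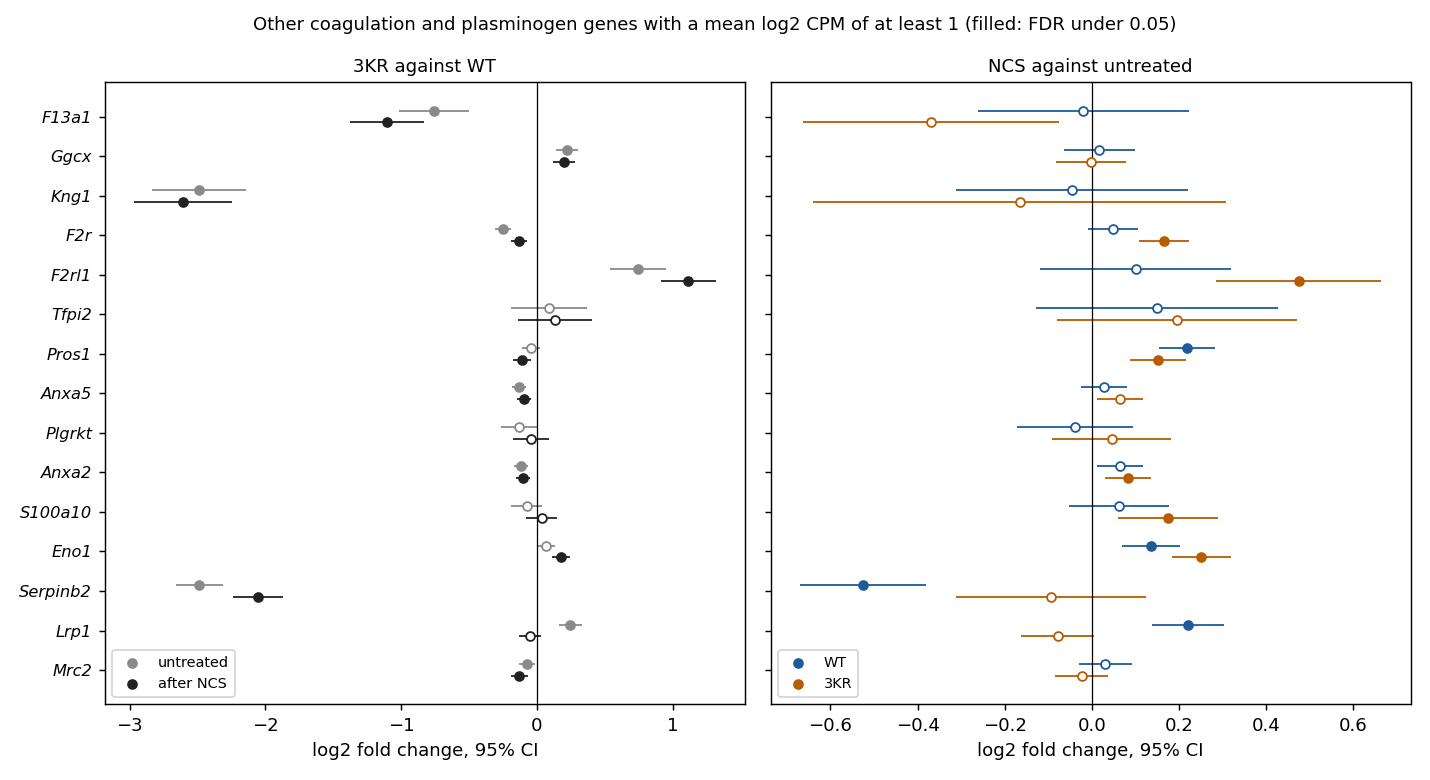
Log2 fold changes (horizontal axes, of unequal range) with 95% intervals of 15 other genes of the system with a mean log2 CPM of at least 1. Filled points passed the edgeR FDR of 0.05. Kng1 and Serpinb2 have the largest drops in 3KR MEFs (both -2.49 without treatment), F2rl1 the largest gain, and Eno1 and Pros1 rise with NCS in both genotypes.

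In the list of plasminogen, its receptors, inhibitors and clearance, 9 of 13 genes were tested. Without treatment 1 was higher and 3 were lower in 3KR MEFs, and after NCS 1 was higher and 4 were lower, against 45.7% and 46.5% of all tested genes in either direction. NCS raised 2 and lowered 1 in wild-type (26.7% of all tested genes in either direction) and raised 3 and lowered 0 in 3KR MEFs (30.8%). Serpinb2, which encodes PAI-2, was at 36.6 ± 4.45, 25.5 ± 1.49, 6.53 ± 0.456 and 6.13 ± 0.113 CPM (SD, n = 3), 5.60-fold lower in untreated 3KR MEFs (log2 fold change -2.49, SE 0.083, edgeR FDR = 2.48e-17). With NCS it fell in wild-type MEFs (-0.53, edgeR FDR = 4.25e-06; -0.66 without replicate 3). Lrp1, a receptor that clears protease and inhibitor complexes, was 0.25 higher on the log2 scale in untreated 3KR MEFs (edgeR FDR = 1.77e-05). NCS raised it in wild-type MEFs by 0.22 (edgeR FDR = 1.95e-04), or by 0.32 without replicate 3, and its response was lower in 3KR MEFs by -0.30 (SE 0.057, edgeR FDR = 0.00253), the same direction as for Serpine2. Of the plasminogen receptors, S100a10 rose by 0.17 with NCS in 3KR MEFs (edgeR FDR = 0.0192), a call lost under 5 alternatives. Eno1, for which a near-identical copy may share reads, was 0.18 higher in NCS-treated 3KR than wild-type MEFs and rose with NCS by 0.14 in wild-type and 0.25 in 3KR MEFs (edgeR FDR = 6.37e-05, 0.0027 and 1.94e-06).

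Of the 22 coagulation factors and receptors, 10 were tested, with 2 higher and 5 lower in untreated 3KR MEFs and 3 higher and 3 lower after NCS. All tested genes called in either direction were 45.7% and 46.5% here. NCS raised 0 of the 10 in wild-type (26.7% of all tested genes in either direction) and 3 in 3KR MEFs (30.8%), and lowered 0 in both. F2rl1, a receptor cut by the complex of tissue factor and factor VIIa, was at 5.02 ± 0.306, 5.38 ± 0.562, 8.42 ± 0.646 and 11.7 ± 1.02 CPM (SD, n = 3). Like F3, it was higher in 3KR MEFs, by 0.74 without treatment (SE 0.10, edgeR FDR = 1.42e-06) and by 1.12 after NCS (edgeR FDR = 1.29e-09), and NCS raised it in 3KR MEFs by 0.47 (edgeR FDR = 3.13e-04). F2r, a receptor for thrombin, was at 770.3 ± 29.1, 796.0 ± 9.42, 647.3 ± 6.07 and 726.0 ± 4.65 CPM (SD, n = 3). It was lower in 3KR MEFs by -0.25 without treatment (edgeR FDR = 6.65e-08) and by -0.13 after NCS (edgeR FDR = 3.63e-04), and rose with NCS in 3KR cells by 0.17 (edgeR FDR = 6.13e-05). Kng1, which encodes kininogen and has a close paralog that may share reads, was at 4.31 ± 0.330 CPM in untreated wild-type and 0.769 ± 0.169 CPM in untreated 3KR cells. Its log2 fold change was -2.49 (edgeR FDR = 1.10e-11) without treatment and -2.61 after NCS (edgeR FDR = 1.29e-11). F13a1, a subunit of the factor that crosslinks fibrin, was lower by -0.76 (edgeR FDR = 2.38e-05) and -1.11 (edgeR FDR = 2.59e-07), and Ggcx, the carboxylase of vitamin K dependent factors, higher by 0.22 (edgeR FDR = 5.88e-05) and 0.20 (edgeR FDR = 1.89e-04). F13a1 is also a gene of macrophages, whose markers were higher in 3KR MEFs, and their part in its level was not tested.

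Of the 8 other anticoagulants, 4 were tested. In 3KR MEFs 0 were higher, and 1 without treatment and 2 after NCS were lower, while NCS raised 1 in each genotype, against the same shares of all tested genes (45.7%, 46.5%, 26.7% and 30.8%). That gene was Pros1, which encodes the protein C cofactor protein S. It was at 127.9 ± 1.79 CPM in untreated and 148.7 ± 3.66 CPM in NCS-treated wild-type cells (SD, n = 3), a log2 change of 0.22 (edgeR FDR = 1.02e-05). Thbd, Procr and Pros1, which act in 1 pathway with protein C, thus all rose with NCS in wild-type MEFs, though protein C itself had at most 1 count.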

How the data were processed

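RNA-seq of 12 MEF samples (wild-type or 3KR, untreated or NCS, 3 each) was used. The authors deposited raw counts of reads per Ensembl gene, 1 file per sample, neither normalized nor filtered. The submitters' processing notes name TopHat, HTSeq, DESeq and the build mm9, and whether counting used the strand of the stranded library is not given in the sources used here. No other gene overlaps the 8 genes in GENCODE M21. Symbols and exon lengths were taken from this release for 32919 identifiers (5072 did not match). Because the builds differ, coordinates are given only for RefSeq promoter windows of GRCm38.p6. The depth was 33203757 to 45279321 counts. The coefficient of variation of RPKM between the replicates of a group was 0.632% to 10.0% for the 8 genes. Totals at or under 3 counts were taken as the floor, for counting error only.

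Genes kept by filterByExpr were tested in edgeR 4.0.16 (R 4.3.3) by the quasi-likelihood F test, two-sided, after TMM, on all 12 samples with a coefficient for every group, and p-values were adjusted by Benjamini-Hochberg over all 15327 genes, with calls at 0.05. RPKM used TMM library sizes and the length of all exons. For E2f1, Xist and Ddx3y, counts were scaled with DESeq2 1.42.0 size factors. The edgeR fit was tested on simulated data. The members and lists were chosen with earlier results of these data known. The 3 pathway lists were coagulation factors and their receptors, other anticoagulants, and plasminogen with its receptors, inhibitors and clearance, and results for 1 gene of the last list are not reported here. The marker lists were fibroblast, macrophage, Schwann and neural crest, endothelial, mesothelial, platelet and megakaryocyte, and keratinocyte and epithelial. Named by rule were the 8 genes, up to 4 genes of the pathway lists per comparison and direction with the largest change among those past the threshold with a mean log2 CPM of at least 1, and the 3 genes with the highest Pearson correlation with each of the 8 (log2 CPM, prior count 2). F12, F13b, Fga, Fgg, Serpina5, Hrg, Plg, F2, Proc and F7 were named after their counts had been seen. Alternatives were DESeq2 size factors, its Wald test, a minimum of 10 counts in each sample, no filter, a fit of only the 6 samples compared, a replicate block, each sample left out, and wild-type replicate 3 left out in both treatments.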

Additional observations from a re-analysis of the deposited data

Results flagged for a closer look

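For 3 genes the responses to NCS differed between the genotypes by a test of the difference itself. On the log2 scale, 3KR minus wild-type, they were 0.38 for Plaur, -0.22 for Serpine2 and -0.30 for Lrp1 (edgeR FDR = 8.02e-05, 0.00369 and 0.00253). Without wild-type replicate 3 in either treatment the same differences were 0.36, -0.25 and -0.41.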

How the results depend on the processing

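Over the alternatives, 527 of 560 results for the 8 genes kept direction and side of the threshold, 18 passed only under an alternative and 15 changed direction, and of those called with the reported settings 0 lost their call and 0 changed direction. The changes of direction concerned values near 0. The F3 difference in response (-0.00088) became 0.0175 with at least 10 counts in every sample and ranged from -0.046 to 0.033 with 1 sample left out. With 1 sample left out Plat ranged from -0.028 to 0.064 for 3KR against wild-type after NCS, from -0.094 to 0.0018 and -0.015 to 0.020 for NCS in wild-type and 3KR MEFs, and from -0.00097 to 0.097 for the difference. Plat for genotype after NCS was -0.028 without wild-type replicate 3 in either treatment, and Plat for NCS in 3KR MEFs was -0.0030 with no filter.

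The difference of Plau (edgeR FDR = 0.0537) passed under 6 alternatives, among them DESeq2 (FDR = 0.0373). All genes called for the difference numbered 572, 345 (without untreated 3KR replicate 3) to 1159 (without untreated wild-type replicate 3) with 1 sample left out, and 1842 without wild-type replicate 3 in both treatments. The pathway genes called for the difference were 1, 1 to 3 (untreated wild-type replicate 3) with 1 sample left out, 6 without wild-type replicate 3 in both treatments, and 2 each with no filter, at least 10 counts in every sample or the DESeq2 Wald test. For NCS in wild-type MEFs they were 4, and 7 without that replicate. The cause was not tested.

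Same-numbered samples deviated together weakly, with correlations of -0.0060 to 0.097, and the numbers were not taken as pairs. With the replicate block, 7173 and 7292 of the 15327 tested genes passed for genotype without and with NCS (7007 and 7131 without it), and 5239 and 5801 for NCS in wild-type and 3KR MEFs (4090 and 4721 without it). With it, 1379 genes in all and 4 pathway genes passed for the difference, and 7 pathway genes for NCS in wild-type MEFs. Members passing under the block were 6 and 7 for genotype without and with NCS, 6 and 7 for NCS in wild-type and 3KR MEFs, and 3 for the difference. Every sample correlated best with its own number for untreated against NCS-treated wild-type MEFs and for untreated wild-type against 3KR MEFs, and not for the other pairs of groups.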
